A study of Zea mays with 12 samples.

Results

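The maize (Zea mays) genes pcna1 (GRMZM2G030523) and pcna2 (GRMZM2G108712) encode proliferating cell nuclear antigen (PCNA), the sliding clamp of DNA replication. Both were chosen by these identifiers and are 2 of the 108342 gene models in the deposited tables. RNA was sequenced from reciprocal crosses of the inbred lines B73 and Mo17. BxM stands for B73 as the mother with Mo17 pollen, and MxB for Mo17 as the mother with B73 pollen. Whole kernels were taken at 0, 3 and 5 days after pollination (DAP) and dissected endosperm at 7, 10 and 15 DAP. Kernels at 0 DAP were unpollinated, so these libraries hold tissue of the inbred mother alone. Kernels at 3 and 5 DAP hold maternal tissue together with the young embryo and endosperm. Endosperm carries 2 maternal genome copies and 1 paternal copy, so BxM endosperm has more B73 copies and MxB endosperm more Mo17 copies. With 2 crosses and 6 ages there are 12 libraries, 1 for each cross at each age. Plant material is labelled as replicated, but a single column per cross and age was used here.

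PCNA forms a ring around DNA that holds the replicative polymerases on their template and serves as a landing platform for enzymes that join and repair the new strand. Its transcription is driven at the start of S phase by E2F factors, which retinoblastoma-related proteins restrain. Maize endosperm first divides as a syncytium, then forms cells that multiply by mitosis, and later enters endoreduplication, in which starchy cells go on copying their DNA without dividing. PCNA is used in mitotic S phase and in endoreduplication alike.

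Levels are given as CPM (counts scaled to library size) with TMM factors, which correct for differences in RNA composition between libraries. CPM does not correct for gene length, and no lengths were used, so the level of pcna1 is not set against that of pcna2. The encoded proteins are closely similar, and the rule by which the authors' mapping divided reads that fit both genes is not known here. The split of counts between the genes is therefore uncertain, and the sum of both is given where it matters. Neither gene had the same counts as any other model. Libraries of 0 to 10 DAP summed to between 59378582 and 70930121 counts. The 15 DAP libraries were shallower, with 35401314 counts in BxM and 39864984 in MxB.

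Both genes were at moderate levels in kernels, highest in endosperm at 7 and 10 DAP, and lowest at 15 DAP. For pcna1, BxM kernels of 0, 3 and 5 DAP held 21.9, 33.2 and 25.8 CPM, and BxM endosperm of 7, 10 and 15 DAP held 127, 95.8 and 3.82 CPM. MxB kernels held 19.7, 35.1 and 37.7 CPM of pcna1, and MxB endosperm 132, 109 and 12.8 CPM. The 4 libraries of 7 and 10 DAP endosperm stood above all kernel libraries, and both 15 DAP libraries stood below all others. The 15 DAP levels rest on 80 counts in BxM and 354 in MxB, against 8401 and 8793 at 7 DAP.

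For pcna2, BxM kernels held 36.7, 53.8 and 42.5 CPM and BxM endosperm 211, 164 and 6.55 CPM at these ages. MxB kernels held 64.7, 77.8 and 57.0 CPM of pcna2, and MxB endosperm 242, 207 and 22.9 CPM. Here too the 4 endosperm libraries of 7 and 10 DAP were above every kernel library and both 15 DAP libraries below, with 137 and 630 counts at 15 DAP.

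Over the crosses the mean level of pcna1 fell in the order 7 DAP (130 ± 3.27 CPM, SD, n = 2), 10 DAP (103 ± 9.68), 3 DAP (34.2 ± 1.31), 5 DAP (31.7 ± 8.42), 0 DAP (20.8 ± 1.5) and 15 DAP (8.33 ± 6.38). The ranges of 3 and 5 DAP overlapped, and those of other neighbours in this order did not. The order for pcna2 was 7 DAP (226 ± 22.0 CPM), 10 DAP (185 ± 30.5), 3 DAP (65.8 ± 17.0), 0 DAP (50.7 ± 19.8), 5 DAP (49.8 ± 10.3) and 15 DAP (14.7 ± 11.5). All kernel ages overlapped with each other in pcna2. The n = 2 here are the crosses, which are not replicates of the same cross.

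**Figure D1:**
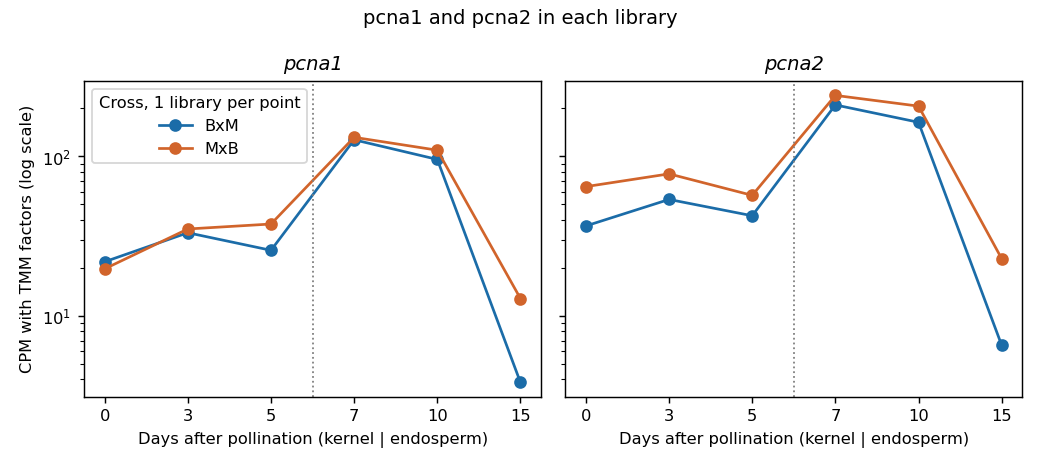
Level of pcna1 (left) and pcna2 (right) in CPM with TMM factors on a log axis against days after pollination, 1 library per point, with lines joining the ages of a cross and a dotted line between kernels and endosperm. Both genes were highest at 7 DAP and lowest at 15 DAP in both crosses, where BxM held 3.82 (pcna1) and 6.55 CPM (pcna2) and MxB 12.8 and 22.9 CPM.

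Ages were compared with edgeR's quasi-likelihood test in a fit of the 12 libraries that has terms for age and for cross, with Benjamini-Hochberg adjustment over 46342 models (46321 in steps that use 15 DAP). Since an age has 1 library per cross, the p-values measure how unequally the crosses behave and not the spread between plants. Before pollination and in young kernels neither gene passed the threshold of 0.05. From 0 to 3 DAP the log2 fold change was 0.70 for pcna1 (SE 0.406, edgeR adjusted p = 0.469) and 0.41 for pcna2 (SE 0.361, adjusted p = 0.669), positive in both crosses. In that step 0.531% of all models were called higher and 0.0173% lower. From 3 to 5 DAP the values were -0.14 (SE 0.404, edgeR adjusted p = 0.977) and -0.39 (SE 0.361, adjusted p = 0.80). Of all models, 0.0129% were called higher and 0% lower in this step, while 1732 models were lower at an unadjusted p under 0.05 in edgeR. By itself BxM gave a log2 difference of -0.37 for pcna1 from 3 to 5 DAP and MxB one of 0.10.

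Both genes rose from 5 DAP kernels to 7 DAP endosperm. For pcna1 the BxM level went from 25.8 to 127 CPM and the MxB level from 37.7 to 132 CPM, 4.18-fold in the fit (log2 2.06, SE 0.42, edgeR adjusted p = 0.00777). pcna2 rose 4.63-fold (log2 2.21, SE 0.376, edgeR adjusted p = 0.0036), with log2 differences of 2.31 in BxM and 2.08 in MxB. Of all models, 10.0% were called higher and 14.8% lower in this step, and 12.9% and 11.6% had a larger log2 fold change than pcna1 and pcna2. The call for pcna1 was lost without the BxM library of 5 DAP (log2 1.96, edgeR adjusted p = 0.0645) and without that of 7 DAP (1.85, adjusted p = 0.0517).

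This step changes the tissue along with the age. The summed level of 4 ovule markers (zag1, zag2, zmm2 and bde1, MADS-box genes of the carpel and ovule) lay between 696 and 1117 CPM in the 6 kernel libraries and between 9.82 and 249 CPM in the 4 endosperm libraries of 7 and 10 DAP. That of 6 transfer layer markers went the other way, from 9.96 to 452 CPM in kernels to 2366 to 12372 CPM at 7 and 10 DAP. In bulk tissue a change in the share of dividing cells and a change of RNA per cell cannot be told apart, nor can age and tissue in this step.

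From 7 to 10 DAP neither gene passed the threshold. The level at 10 DAP was 75.3% of that at 7 DAP for pcna1 in BxM and 83.0% in MxB, and 77.8% and 85.6% for pcna2. The fitted log2 fold changes were -0.35 for pcna1 (SE 0.404, edgeR adjusted p = 0.73) and -0.30 for pcna2 (SE 0.36, adjusted p = 0.737), in a step where 2.83% of all models were called higher and 0.962% lower. For both genes the 10 DAP libraries were below both 7 DAP libraries, and the fitted changes were smaller than their SE. Tissue markers moved in this step. The summed ovule markers stood at 11.3 and 9.82 CPM (BxM and MxB) at 7 DAP and at 148 and 249 CPM at 10 DAP, and the 4 starchy endosperm genes (sh2, bt2, wx1 and o2, of starch synthesis and storage protein control) at 15.4 and 249 CPM, then 3499 and 3142 CPM. The 3 markers of the embryo-surrounding region went down, with 2221 and 992 CPM before and 70.7 and 147 CPM after. Their bearing on the values of this step was not tested.

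Both genes fell from 10 to 15 DAP. In BxM pcna1 went from 95.8 to 3.82 CPM, 25.1-fold lower, and in MxB from 109 to 12.8 CPM, 8.52-fold lower. The fit gave a 13.1-fold decrease (log2 -3.71, SE 0.454, edgeR adjusted p = 0.0014). pcna2 was 25.0-fold lower in BxM and 9.05-fold lower in MxB, with a fitted log2 fold change of -3.81 (SE 0.406, edgeR adjusted p = 0.000868). In this step 3.73% of all models were called higher and 14.0% lower, the median log2 fold change of all models was -0.37, and 14.9% and 14.5% of models had a lower log2 fold change than pcna1 and pcna2. Whether the fall differed between crosses was not tested, because a cross has 1 library per age.

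Markers of the tissue moved in the same step. The summed level of the 4 starchy endosperm genes was 34256 and 34263 CPM at 15 DAP. All other marker sums of endosperm and embryo were lower at 15 than at 10 DAP, in the direction of pcna1 and pcna2, but not every gene within them was. Transfer layer markers stood at 2366 and 3908 CPM at 10 DAP and 1.15 and 7.11 CPM at 15 DAP, and those of the embryo-surrounding region at 0.382 and 1.09 CPM at 15 DAP. Embryo markers stood at 427 and 220 CPM at 10 DAP and 52.1 and 54.9 CPM at 15 DAP, after 52.3 and 87.3 CPM at 7 DAP. Most of the sum at 10 DAP was ole1 (331 and 164 CPM, then 16.25 and 26.0), and ole17 and vp1 were also lower at 15 DAP. wox2A went up in both crosses, from 26.5 and 17.6 to 32.0 and 23.3 CPM. The 2 of the 6 genes at 0 at 15 DAP, lec1 and wox5B, were at most 0.164 CPM at 10 DAP. The 4 aleurone markers stood at 1614 and 1336 CPM at 10 DAP and at 641 and 628 CPM at 15 DAP, after 516 and 707 CPM at 7 DAP. Of these, vpp1 went from 770 and 759 to 20.1 and 42.6 CPM and dek1 from 24.6 and 31.5 to 18.5 and 21.5 CPM. nkd1 (580 and 391, then 372 and 407 CPM) and nkd2 (240 and 155, then 230 and 157 CPM) were lower in BxM and higher in MxB. Ovule markers stood at 1.67 and 2.14 CPM at 15 DAP. The 9 green tissue genes summed to at most 7.55 CPM in endosperm and to 24.5 to 72.7 CPM in kernels. How far these shifts contribute to the changes of pcna1 and pcna2 was not tested.

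Against unpollinated kernels, 15 DAP endosperm held less of both genes. The decrease was 2.69-fold for pcna1 (log2 -1.43, SE 0.422, edgeR adjusted p = 0.0278) and 3.68-fold for pcna2 (log2 -1.88, SE 0.376, adjusted p = 0.00472). In that comparison 12.5% of all models were called higher and 23.5% lower, around a median of -0.63. The pcna1 call did not hold with RLE factors (edgeR adjusted p = 0.0515), upper-quartile factors (adjusted p = 0.105) or age as the only term (adjusted p = 0.0562), and it was lost when each of 4 libraries was left out in turn. These were BxM at 0 DAP (log2 -0.83), MxB at 0 DAP (-1.54), BxM at 3 DAP (-1.21) and BxM at 15 DAP (-0.78). With the counts of both genes summed into 1 model, the log2 fold changes were 2.16 from 5 to 7 DAP (SE 0.384, edgeR adjusted p = 0.00433), -3.78 from 10 to 15 DAP (SE 0.415, adjusted p = 0.000951) and -1.74 from 0 to 15 DAP (SE 0.383, adjusted p = 0.0074).

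**Figure D2:**
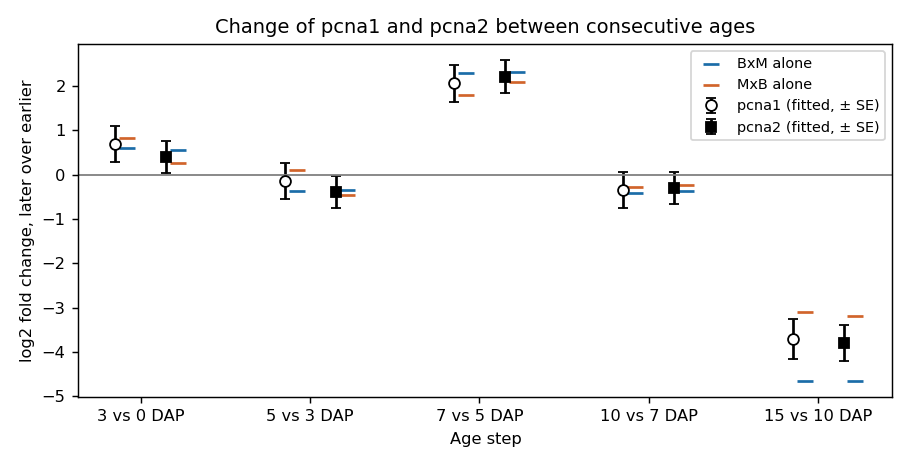
log2 fold change of pcna1 (open circles) and pcna2 (filled squares) between consecutive ages with the SE of the edgeR fit, and the difference within each cross alone (coloured dashes). The rise from 5 to 7 DAP (2.06 and 2.21) and the fall from 10 to 15 DAP (-3.71 and -3.81) stand away from 0, and the fall is larger in BxM than in MxB.

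The crosses were compared at each age as the ratio of MxB to BxM. pcna2 was higher in MxB at all 6 ages, by 1.76-fold, 1.45-fold and 1.34-fold in kernels of 0, 3 and 5 DAP and by 1.15-fold, 1.26-fold and 3.49-fold in endosperm of 7, 10 and 15 DAP. For pcna1 the ratios were 0.903, 1.06, 1.46, 1.04, 1.14 and 3.36, so MxB was higher at 5 of 6 ages. Over the 6 ages the mean log2 ratio of BxM to MxB was -0.69 for pcna2 (exact two-sided sign-flip permutation test, p = 0.0313, the smallest that 6 ages allow, and 0.0938 after adjustment over 3 tests). It was -0.41 for pcna1 (exact permutation p = 0.156, adjusted 0.156). Without 15 DAP the mean was -0.14 for pcna1 (exact permutation p = 0.313) and -0.46 for pcna2 (exact permutation p = 0.0625). Neither gene passed after adjustment.

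Tests across all models did not call either gene between crosses. In the 6 endosperm libraries the log2 fold change of BxM over MxB was -0.59 for pcna1 (SE 0.317, edgeR adjusted p = 0.557) and -0.73 for pcna2 (SE 0.31, adjusted p = 0.451). Of 38892 models, 0.0386% were called higher and 0.0103% lower in BxM. In kernels of 3 and 5 DAP the values were -0.34 for pcna1 (SE 0.464, edgeR adjusted p = 0.891) and -0.50 for pcna2 (SE 0.454, adjusted p = 0.754), where 4.03% of 40879 models were called higher and 3.64% lower in BxM. The fit has a term for each age, so a library left alone at its age does not inform the difference between crosses. Leaving out BxM or MxB of an age is therefore the same comparison and not a separate check. Without either library of 7 DAP the endosperm value of pcna2 was -0.98. Without either 15 DAP library the difference shrank to -0.26 for pcna2 and to -0.12 for pcna1. Headers of the count columns name B73 as the reference, so Mo17 reads may map less well, and the effect of mapping on a difference between crosses was not tested.

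The division of counts between the genes was nearly constant in BxM and not in MxB. In BxM pcna1 held 37.3%, 38.2% and 37.8% of the pair's counts in kernels of 0, 3 and 5 DAP and 37.7%, 36.9% and 36.9% in endosperm of 7, 10 and 15 DAP, a range of 1.33 percentage points. In MxB it held 23.4% at 0 DAP (exact 95% interval 22.5 to 24.3), 31.1% at 3 DAP (30.1 to 32.0), 39.8% at 5 DAP (38.7 to 40.9) and 35.3%, 34.6% and 36.0% in endosperm, a range of 16.4 points. The lowest share was in the unpollinated Mo17 mother, with 1946 counts of pcna1 and 6381 of pcna2, against 1960 and 3288 in the unpollinated B73 mother. The intervals cover counting error only and not the spread between plants, since there is 1 library per cross and age. They may be too narrow even for counting error, because reads without molecular identifiers are not independent molecules. Over the 6 ages the log2 ratio of pcna1 to pcna2 was higher in BxM by 0.27 on average and at 5 of 6 ages (exact sign-flip permutation p = 0.0938, adjusted 0.141). Without 0 DAP the mean difference was 0.14.

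**Figure D3:**
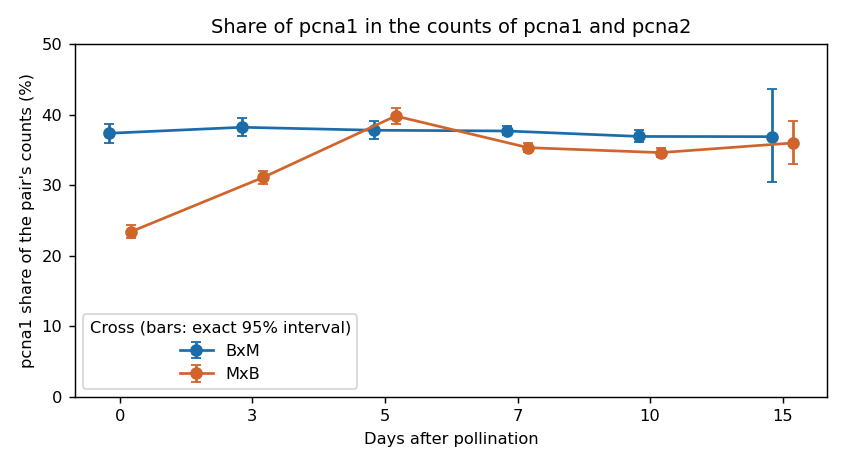
Share of pcna1 in the summed counts of pcna1 and pcna2 in percent against days after pollination, with exact 95% intervals of counting error, for BxM and MxB with 1 library per point. BxM stays between 36.9% and 38.2%, and MxB goes from 23.4% at 0 DAP to 39.8% at 5 DAP and 34.6% to 36.0% in endosperm.

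Other genes of replication and the cell cycle were taken from lists of 36 models named in the reference table, each of which passed the filter on low counts. Of the 36, 1 rose from 0 to 3 DAP (cki2, an inhibitor of cyclin-dependent kinases, log2 2.60, SE 0.403, edgeR adjusted p = 0.0353). This call was lost with library totals alone and in most runs that left out 1 library. Among all models 0.531% were called higher and 0.0173% lower in this step. None of the 36 passed from 3 to 5 DAP in edgeR, where 0.0129% of all models were called higher and 0% lower. At an unadjusted p under 0.05 in edgeR 3 of the 36 were higher and 9 lower, where 2891 and 1732 of 46342 models were. DESeq2, whose counts over all models are given at the end, called 1 of the 36 higher and 7 lower. Without the MxB library of 3 DAP, more of the 36 were called in both of these steps, and from 0 to 3 DAP more of all models were. From 5 to 7 DAP 15 rose and 1 fell, with a median log2 fold change of 1.13 against 0.00 over all models. Among all models 10.0% were called higher and 14.8% lower there. Without either library of 5 or of 7 DAP, 7 to 9 were called in that step. From 7 to 10 DAP none rose and 2 fell in edgeR (median -0.05, as over all models), with 3 higher and 6 lower at an unadjusted p under 0.05 and 1 higher and 5 lower in DESeq2. Among all 46342 models edgeR called 2.83% higher and 0.962% lower, and 5120 were higher and 3365 lower at an unadjusted p under 0.05. From 10 to 15 DAP 24 fell and none rose (median -2.68 against -0.37), with 0 higher at an unadjusted p under 0.05 and 0 higher in DESeq2. Among all 46321 models edgeR called 3.73% higher and 14.0% lower, and 3642 were higher at an unadjusted p under 0.05. Between 0 and 15 DAP 4 rose and 20 fell, where 12.5% of all models were called higher and 23.5% lower, so the share of the list that rose was near that of all models.

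The MCM helicase, which opens the double helix ahead of the polymerases, is represented by MCM6 and MCM7. Neither increase from 5 to 7 DAP passed (MCM6 log2 1.30, SE 0.50, edgeR adjusted p = 0.0927, and MCM7 1.28, SE 0.501, adjusted p = 0.0983). MCM6 stood at 86.1 and 72.7 CPM (BxM and MxB) at 7 DAP, 31.7 and 32.6 at 10 DAP and 0.813 and 3.30 at 15 DAP. Its fall after 10 DAP passed (log2 -4.00, SE 0.571, edgeR adjusted p = 0.00246) and its decrease from 7 to 10 DAP did not (-1.32, SE 0.50, adjusted p = 0.203). MCM7 also fell after 10 DAP (log2 -3.09, SE 0.542, edgeR adjusted p = 0.00593). SLD5, a subunit of the GINS complex that activates the helicase, rose from 5 to 7 DAP by log2 2.47 (SE 0.537, edgeR adjusted p = 0.0104) and fell after 10 DAP (-2.94, SE 0.556, adjusted p = 0.00804).

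Subunits of the origin recognition complex, which marks where replication starts, did not move together. orc2 rose from 5.31 and 3.94 CPM at 5 DAP to 20.1 and 29.1 at 7 DAP and fell to 1.63 and 2.29 at 15 DAP. orc1 also fell after 10 DAP (log2 -1.73, SE 0.428, edgeR adjusted p = 0.0247). orc3 had its highest level at 15 DAP in both crosses (52.5 and 63.0 CPM), and orc4 in BxM (52.2 CPM, with 35.3 in MxB). Both rose between 0 and 15 DAP (orc3 log2 1.06, edgeR adjusted p = 0.0148, and orc4 0.85, adjusted p = 0.0475).

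RPA-2A1, a subunit of replication protein A, which coats single-stranded DNA in replication and repair, kept a high level at 15 DAP. It stood at 71.2 and 90.8 CPM at 5 DAP, 329 and 410 at 7 DAP, 464 and 404 at 10 DAP and 242 and 184 at 15 DAP. The rise to 7 DAP passed (log2 2.19, SE 0.328, edgeR adjusted p = 0.00209), and the later decrease did not (-1.03, SE 0.318, adjusted p = 0.0553). FEN1, the flap endonuclease that trims Okazaki fragments and binds PCNA, rose from 5 to 7 DAP (log2 1.10, SE 0.265, edgeR adjusted p = 0.0165). FEN1 stood at 88.7 and 98.9 CPM at 7 DAP, 45.8 and 49.3 at 10 DAP and 31.4 and 42.1 at 15 DAP. Its decrease from 7 to 10 DAP did not pass (log2 -0.98, SE 0.264, edgeR adjusted p = 0.0827), where pcna1 and pcna2 gave -0.35 and -0.30. Its change after 10 DAP was -0.39 (SE 0.263, adjusted p = 0.367), where pcna1 and pcna2 gave -3.71 and -3.81. Between 0 and 15 DAP FEN1 fell (log2 -0.80, SE 0.264, edgeR adjusted p = 0.0428).

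Some genes of deoxynucleotide supply had their highest endosperm level at 10 DAP, where pcna1 and pcna2 had theirs at 7 DAP. The small ribonucleotide reductase subunit RNRS1 stood at 131 and 141 CPM at 7 DAP, 292 and 325 at 10 DAP and 13.0 and 41.5 at 15 DAP. RNRS3 was highest at 10 DAP (141 and 131 CPM) and stood at 101 and 61.7 CPM in 3 DAP kernels. Neither increase from 7 to 10 DAP passed (RNRS1 log2 1.18, SE 0.473, edgeR adjusted p = 0.227). The large subunit RNRL2 was highest at 7 DAP (54.8 and 53.8 CPM) and fell after 10 DAP, as did the 3 small subunits. DRTS, which makes thymidylate, rose to 7 DAP (log2 0.83, SE 0.232, edgeR adjusted p = 0.0309) and did not pass after 10 DAP (-0.61, adjusted p = 0.11).

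Of the 7 core histone genes, which package newly copied DNA, 4 rose from 5 to 7 DAP and 6 fell from 10 to 15 DAP (list medians 1.42 and -3.90), steps in which 10.0% of all models were called higher and 14.0% lower around medians of 0.00 and -0.37. None of the 7 passed in the steps before. At an unadjusted edgeR p under 0.05, 5 were higher from 0 to 3 DAP (list median 1.04) and 6 lower from 3 to 5 DAP (-1.32). Of 46342 models, 4286 were higher and 1732 lower in these steps. The highest library of his2a1, H3C2 and H4-GRMZM2G149178 was BxM at 3 DAP. his2a1 stood at 1261 and 710 CPM (BxM and MxB) at 3 DAP, 313 and 386 at 5 DAP, 509 and 700 at 7 DAP, 1109 and 1131 at 10 DAP and 43.0 and 111 at 15 DAP. The H2B gene his2b2 stood at 261 and 314, then 360 and 340, then 21.4 and 36.2 CPM. histone2b1 fell least of the 6, to 170 and 130 CPM at 15 DAP. The 7th, his2b5, was at 0.122 CPM in the unpollinated Mo17 mother and 135 CPM in the unpollinated B73 mother, and passed no step. Histone genes have many near copies, so their counts may be divided between copies.

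Among regulators, none of the 5 retinoblastoma-related and DP genes, whose products hold or pair with E2F, passed from 5 to 7 DAP. Of all models, 10.0% were called higher and 14.8% lower there, so with 5 genes this does not set them apart. After 10 DAP rbr3 (log2 -2.58, SE 0.496, edgeR adjusted p = 0.00869) and DP2 (-1.73, SE 0.344, adjusted p = 0.00998) fell. RBR1 stood at 33.9 and 35.1 CPM at 10 DAP and 34.2 and 44.5 CPM at 15 DAP. The inhibitor cki1 fell after 10 DAP (log2 -2.53, SE 0.533, edgeR adjusted p = 0.0129).

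The 2 listed genes that fell from 7 to 10 DAP were the cyclins cyc1 and cyc3. cyc1 stood at 43.8 and 44.3 CPM at 7 DAP and 10.9 and 14.7 at 10 DAP (log2 -1.79, SE 0.296, edgeR adjusted p = 0.0179). cyc3 stood at 64.6 and 71.2, then 17.9 and 19.6 (log2 -1.86, SE 0.421, edgeR adjusted p = 0.0484). mad2, of the spindle checkpoint of mitosis, had 44.8 and 44.9, then 14.0 and 13.9 CPM, without passing (log2 -1.68, SE 0.46, edgeR adjusted p = 0.0864). At the same step pcna1 and pcna2 gave -0.35 and -0.30, and the difference between these genes was not tested. Without either library of 7 DAP or of 10 DAP no listed gene was called in this step. All of cyc1, cyc3 and mad2 were at most 1.09 CPM at 15 DAP. cdc2, a cyclin-dependent kinase, rose to 7 DAP (63.7 and 67.3 CPM) and fell to 18.7 and 18.8 CPM at 15 DAP. cycD1, a D-type cyclin of the entry into the cycle, was the gene that fell from 5 to 7 DAP, with 30.8 and 14.6 CPM before and 2.35 and 4.96 CPM after (log2 -2.44, SE 0.779, edgeR adjusted p = 0.0498). No listed gene was called lower in this step with upper-quartile factors, without the most abundant models, or without any of the libraries BxM and MxB at 0, 5 and 10 DAP and BxM at 7 DAP in turn.

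**Figure D4:**
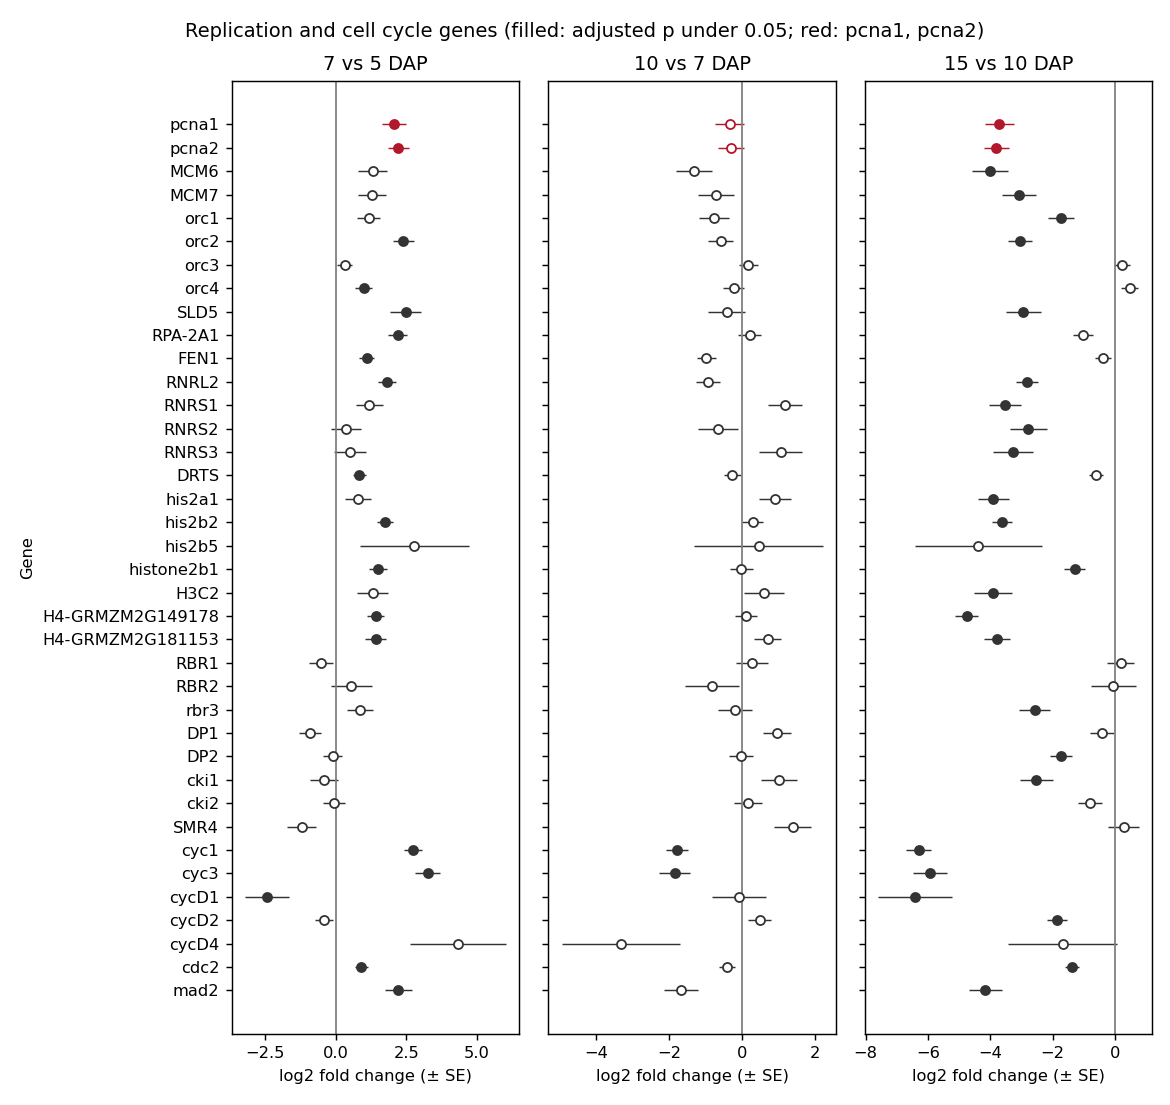
log2 fold change with its SE of pcna1, pcna2 (red) and 36 other replication and cell cycle genes from 5 to 7 DAP, 7 to 10 DAP and 10 to 15 DAP, with filled points for an edgeR adjusted p under 0.05 and a separate scale in each panel. In the middle panel cyc1 and cyc3 are the filled points, at -1.79 and -1.86, and on the right FEN1, orc3, orc4 and RBR1 are among the open points, with pcna1 and pcna2 at -3.71 and -3.81.

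At 15 DAP many of these genes shared the excess in MxB. Of the 36, 26 were higher in MxB at 15 DAP and 9 of them (25.0%) by more than 2-fold on the scale of CPM plus 0.5, where 7.10% of all tested models were. The median log2 ratio of MxB to BxM was 0.39 for the list and 0.00 over all tested models. The ratio was 4.06 for MCM6, 4.07 for MCM7, 4.28 for SLD5, 4.34 for RNRS3 and 3.18 for RNRS1, beside 3.36 and 3.49 for pcna1 and pcna2. The ratios of MCM6, MCM7 and SLD5 rest on few counts. They stood at 0.8125, 1.864 and 1.195 CPM in BxM at 15 DAP, a library in which 3 counts equal 0.143 CPM. RPA-2A1 (0.759) and orc4 (0.676) were lower in MxB, and 2 of the 36 were more than 2-fold lower there, DP1 (0.402) and his2b5 (0.453), as were 6.92% of all tested models. At 0, 3 and 5 DAP, 15, 13 and 12 of the 36 were higher in MxB, and at 7 and 10 DAP 20 and 21. The list medians of this log2 ratio at 0, 3, 5, 7 and 10 DAP were -0.09, -0.25, -0.29, 0.01 and 0.04. Those of all tested models were 0.01, 0.05, -0.03, 0.00 and 0.02. These are values of single libraries with no test.

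**Figure D5:**
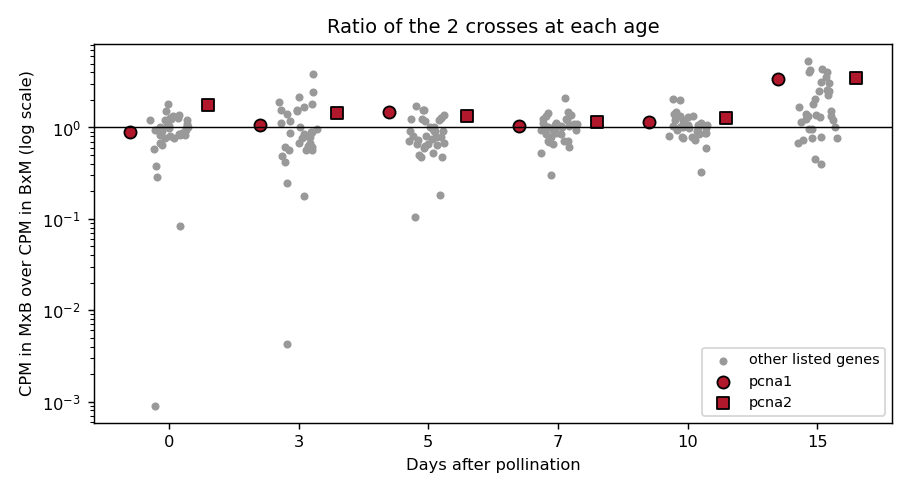
CPM in MxB divided by CPM in BxM on a log axis at each age, for pcna1 (red circles), pcna2 (red squares) and the other listed genes with a ratio above 0 (grey), 1 library per cross and age. pcna1 and pcna2 are at 3.36 and 3.49 at 15 DAP, among a group of listed genes above 2, and pcna2 is above 1 at every age.

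Across the 12 libraries the log2(CPM + 0.5) values of pcna1 and pcna2 correlated with a Pearson r of 0.98, which made them each other's second and first closest among 27654 models with a mean count of at least 100. Beside the pair, the models most like pcna1 were GRMZM5G856966 (r = 0.981), GRMZM2G300945 (0.975), ppt1 (GRMZM2G047404, 0.975), GRMZM2G120271 (0.972) and SLD5 (0.971). Those most like pcna2 were ppt1 (0.972), GRMZM2G300945 (0.97), GRMZM5G846267 (0.967), GRMZM2G130207 (0.965) and GRMZM2G124091 (0.965). ppt1 stood at 223 and 257 CPM at 7 DAP and at 6.07 and 12.9 CPM at 15 DAP. Without the 15 DAP libraries r of the pair was 0.955 over 10 libraries. pcna2 then ranked 461 in likeness to pcna1, and pcna1 ranked 131 in likeness to pcna2, so their place as closest models rests on the 15 DAP libraries. Of the models above, GRMZM5G856966 (0.988 with pcna1) was the only model again among the closest 5 of either gene. In the lists, r with pcna1 was highest for SLD5, orc2 (0.913) and his2b2 (0.909), followed by cdc2 (0.898), RNRS1 (0.897) and MCM7 (0.896). It was lowest for the inhibitor SMR4 (-0.49), then RBR1 (-0.27), DP1 (-0.26), orc4 (-0.10) and orc3 (0.03). The points share libraries and ages, so these values describe the likeness of profiles and carry no test.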

How the data were processed

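Read counts per gene model were deposited by the authors for each of the 12 libraries. Bowtie and bedtools were used, per the submitters' processing notes. Their versions, the genome build and the annotation are not stated in the material at hand. A second deposited signal value is, per the file headers and note, the count scaled with edgeR TMM factors. It was a constant multiple of the counts in each library and served only to derive the authors' factors as an alternative.

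The test was edgeR's (version 4.0.16, under R 4.3.3) with settings filterByExpr and TMM (glmQLFit, glmQLFTest, Benjamini-Hochberg, threshold 0.05). Ages were fitted on 12 libraries with age and cross (5 residual degrees of freedom). Crosses were fitted with age in 6 endosperm libraries (2 residual degrees of freedom) and in 4 kernel libraries of 3 and 5 DAP (1 residual degree of freedom). In tests that use 15 DAP, 21 models were left out: those at 0 in both 15 DAP libraries with a mean of at least 5000 counts at 10 DAP, or at 0 in only 1 of the 2 with at least 100000 counts in the other. SE came from the F statistic. Shares have exact Clopper-Pearson 95% intervals. Precision at 15 DAP is limited by fewer counts. The scripts were tested on simulated data.

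Genes were named from RefSeq's gene list for Zm-B73-REFERENCE-NAM-5.0 (18731 models matched), which may not be the build of the files, so no coordinates are given. Planned lists for the clamp loader, polymerases, CDC45, E2F and chromatin assembly had no clearly named row and were not used. Genes and lists were chosen with earlier results of these data known. Named genes are the pair, list members and the 5 models with the highest Pearson r with each of the pair. Alternatives were RLE, upper-quartile or no factors, the authors' factors, no filter, age alone, endosperm alone, omission of 375 abundant models, summed counts of the pair, DESeq2 1.42.0 and leaving out each library. The authors' factors and the sum were chosen after seeing the data.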

Additional observations from a re-analysis of the deposited data

Results flagged for a closer look

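From 3 to 5 DAP pcna1 went down in BxM (log2 difference -0.37) and up in MxB (0.10), so the crosses moved in opposite directions. The difference rests on 1 library per cross and age and was not tested.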

How the results depend on the processing

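The rise of pcna2 from 5 to 7 DAP and the fall of both genes from 10 to 15 DAP kept direction and call under every alternative run. Leaving out 1 library at a time, the fall was -4.68 to -3.07 for pcna1 and -4.59 to -3.25 for pcna2. An arm left with 1 library is assumed to vary like the others.

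pcna1 from 0 to 15 DAP missed the threshold with RLE factors (-1.21), upper-quartile factors (-0.96) and age alone (-1.31), and ranged from -2.39 to -0.78 without 1 library. From 5 to 7 DAP it ranged from 1.85 to 2.26 and lost its call without BxM at 5 or 7 DAP. From 3 to 5 DAP it ranged from -0.31 to 0.08 and changed sign without BxM at 3 DAP (0.0825). pcna2 from 7 to 10 DAP ranged from -0.57 to 0.00 (0.00400 without BxM at 7 DAP). Between crosses in endosperm pcna2 ranged from -0.98 to -0.26 and pcna1 from -0.85 to -0.12, both smallest without a 15 DAP library. The mean log2 ratio of pcna2 over ages was -0.66 without 0 DAP, -0.72 without 3, -0.74 without 5, -0.78 without 7, -0.76 without 10 and -0.46 without 15 DAP, each at exact permutation p = 0.0625, the smallest 5 ages allow.

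Listed genes called from 0 to 3 DAP numbered 0 with library totals alone and 4 with DESeq2, against 1. From 3 to 5 DAP DESeq2 called 8, against 0. From 7 to 10 DAP the number was 1 with library totals alone, with age alone and without the most abundant models, 4 with endosperm alone and 6 with DESeq2, against 2. Without 1 library the ranges were 0 to 6, 0 to 5, 7 to 20 (5 to 7 DAP), 0 to 4 (7 to 10 DAP), 17 to 25 (10 to 15 DAP) and 16 to 24 (0 to 15 DAP).

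Models called from 0 to 3 DAP numbered 254, but 133 with library totals alone, 393 without a filter, 149 with age alone and 3251 with DESeq2. From 3 to 5 DAP there were 6, but 2, 19 and 1287 with library totals alone, no filter and DESeq2. From 7 to 10 DAP there were 1757, but 1140 with age alone, 3301 with endosperm alone and 5614 with DESeq2. Between crosses in endosperm there were 19, but 2 with RLE or the authors' factors, 47 with library totals alone, 924 without a filter and 1035 with DESeq2. In kernels there were 3139, but 909 with library totals alone and 5074 without a filter. Without 1 library these counts ranged from 8 (without BxM at 0 DAP) to 3448 (without MxB at 3 DAP) from 0 to 3 DAP, 0 to 1313 from 3 to 5 DAP, 5857 to 12095 from 5 to 7 DAP, 105 (without BxM at 7 DAP) to 2047 from 7 to 10 DAP, 3635 to 8682 from 10 to 15 DAP and 10844 to 17104 from 0 to 15 DAP. Between crosses in endosperm they ranged from 21 to 1351, the latter without BxM at 7 DAP, with 1344 without MxB at 7 DAP. Without scaling factors the median of all models moved to -1.79 from 0 to 15 DAP and -0.76 from 10 to 15 DAP. The causes were not tested. Leaving out a library in the kernel test of crosses was not run, since no residual degree of freedom remains. The fit of ages keeps cross as a term and the permutation test pairs crosses within an age. No replicate block was fitted, because the labels give no replicate numbers.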
